A study of Mus musculus with 2 samples.

Results

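Integrins are paired surface receptors, each made of an alpha and a beta chain, that hold cells to neighbouring cells and to matrix. Pairing decides what a receptor binds, and a chain without a partner does not reach the surface well. In the gut, the pair of alpha E (CD103) and beta 7 holds intraepithelial lymphocytes (IEL) to E-cadherin on epithelial cells, the pair of alpha 4 and beta 7 brings T cells in from the blood by binding MAdCAM-1, and the pair of alpha L and beta 2 (LFA-1) binds ICAM proteins when T cells meet other cells.

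The 10 integrin genes described here are Itgae, Itgb7, Itga4, Itga1, Itgb1, Itgal, Itgb2, Itgax, Itgav and Itga6, 7 alpha and 3 beta chains that T cells of the gut or effector T cells can use. They were taken as every row of the deposited table whose gene symbol equals one of these names, which gave 27 of the 45101 probe sets and 10 of the 20662 genes. A probe set is a group of short array probes for a transcript. All 10 genes were detected, through 24 of the 27 probe sets, and the 3 that were not detected belong to Itgb1 and Itgav.

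Both RNA samples came from T cells sorted out of the small intestinal epithelium of RAG-knockout mice, on the C57BL/6 strain as labelled, 8 weeks after they had received naive CD4 T cells, a transfer that causes colitis. RAG-knockout hosts make no T or B cells but keep their epithelial, stromal and myeloid cells. The groups were CD4 IEL, sorted as negative for CD8 alpha, and CD4CD8aa IEL, sorted as CD4 cells positive for it, with 1 array of 1 colour each. The labels do not say which Rag gene was deleted, the age of the mice or how many were pooled. Neither group was replicated, so no test was run, and every difference below compares these arrays only.

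Each signal below is a multiple of its array's median, which was 82.5 raw units in CD4 IEL and 81.1 in CD4CD8aa IEL. Differences are log2 CD4CD8aa IEL minus CD4 IEL, so a positive value is higher in CD4CD8aa IEL. Signals under 0.4, the higher of the arrays' 30th percentiles, were raised to that floor, and a probe set was detected where its brighter array lay above it. The only spread the files hold is the SD of differences among probe sets of the same gene, taken over the whole array, which was 0.81 (log2) below the array median and 0.35 above 64 times the median. Having so few arrays limits the precision of these differences. The labels were checked against T cell markers. Cd3e, a chain of the T cell receptor complex, had signals of 59.0 and 118.3, Cd4 had 72.6 and 86.4, and Cd8a, the marker of the sort, had 3.79 and 291.4. The other chains of that complex on the list differed less than Cd3e. Cd3d had 169.9 and 163.2 (-0.06), Cd3g 270.9 and 335.3 (0.31), and Cd247 52.6 and 41.6 (-0.34). In bulk RNA, fewer cells of a kind and less RNA per cell cannot be told apart.

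Past the 2-fold threshold lay 3 of the 10 integrins, of which Itgax was higher in CD4CD8aa IEL and Itgb1 and Itgal were lower, and the other 7 lay between. Over all 17375 detected genes, 12.9% were at least 2-fold apart, 6.65% higher and 6.26% lower. The share depends on brightness, falling from 23.9% of genes with a mean signal below the array median to 2.09% of those above 64 times it, so each member is set against genes of its own brightness. The integrins' median difference was 0.10, beside 0.06 over all detected genes.

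**Figure D1:**
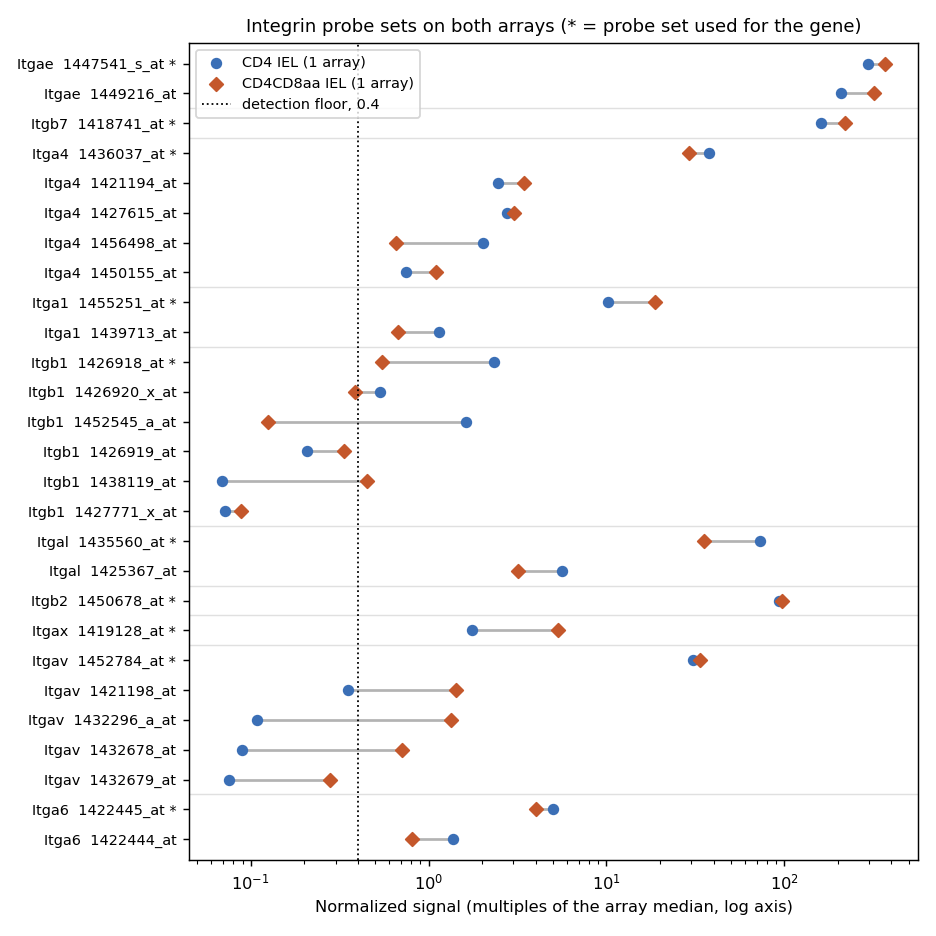
Normalized signal of all 27 integrin probe sets on both arrays, in multiples of the array median on a log axis, with CD4 IEL as circles, CD4CD8aa IEL as diamonds and the detection floor of 0.4 as a dotted line. Itgae, Itgb7 and Itgb2 lie far to the right on both arrays, and Itgal and Itgax differ in opposite directions. Most probe sets of Itgb1 and Itgav lie near or under the floor on at least 1 array, and the widest gaps are among them.

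The chains of the E-cadherin receptor were bright on both arrays and modestly higher in CD4CD8aa IEL. Itgae, which encodes alpha E, gave 295.7 in CD4 IEL, against 369.4 in CD4CD8aa IEL (raw 24397 and 29956), a log2 difference of 0.32. The suffix of that probe set marks sequence shared with other transcripts. The other probe set of Itgae, without such a suffix, had 209.04 and 317.4, a difference of 0.60. Both probe sets thus pointed the same way, the first by less and the second by more than the same-gene SD of 0.35. Itgb7, which encodes the beta 7 chain shared by the gut integrins, had 160.2 and 219.1 (raw 13214 and 17772), a difference of 0.45 or 1.37-fold at its only probe set. A difference at least as high was found in 9.66% of the 1004 detected genes of that brightness for Itgb7 and in 17.0% for Itgae. The partners thus differed from each other by 0.13 on the log2 scale, within the same-gene SD. E-cadherin itself (Cdh1), the ligand on epithelial cells, had signals of 6.39 and 8.07, a difference of 0.34.

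The promoter of Itgb7 is shown because its product pairs with both gut alpha chains. It runs from 250 bases before to 50 bases after the transcription start in RefSeq (GRCm38.p6, chr15:102231886-102232185, minus strand), and the capitals mark matches to short motifs of T cell and general transcription factors.
Itgb7: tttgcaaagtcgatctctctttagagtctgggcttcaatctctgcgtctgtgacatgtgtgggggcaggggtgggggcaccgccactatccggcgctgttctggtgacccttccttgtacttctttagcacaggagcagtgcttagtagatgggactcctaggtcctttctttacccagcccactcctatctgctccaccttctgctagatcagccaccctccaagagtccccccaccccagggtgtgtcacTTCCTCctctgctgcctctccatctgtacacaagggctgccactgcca
The capitals are the reverse complement of GAGGAA, a core that Ets family factors bind, beginning 2 bases after the start. This core, on either strand, was present in 28.3% of 32817 RefSeq promoter windows of the same length, and in 3 of the 6 integrin promoters in that table.

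The alpha chains that pair with beta 2 differed in opposite directions. Itgb2, which encodes the shared beta 2 chain, had signals of 93.1 and 97.5 (raw 7680 and 7907), a difference of 0.07. Its partner Itgal, which encodes the alpha L chain of LFA-1, had 72.9 in CD4 IEL and 35.2 in CD4CD8aa IEL (raw 6018 and 2856), a difference of -1.05 or 2.07-fold lower. The second, dimmer probe set of Itgal had 5.59 and 3.17, a difference of -0.82. The signal of alpha L was thus lower in CD4CD8aa IEL at both probe sets while that of its beta chain was nearly equal on the arrays. The same-gene SD at the brightness of Itgal was 0.41, and 1.46% of the 2805 detected genes in that range (16 to 64 times the median) were as far lower, beside 1.53% at least 2-fold lower. As the median over its probe sets, the difference of Itgal was -0.94, just under 2-fold.

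Itgax, which encodes the alpha X chain (CD11c) found on dendritic cells and on some activated and intraepithelial T cells, went the other way. Its only probe set had signals of 1.76 and 5.33 (raw 145.5 and 432.3), a difference of 1.60 or 3.02-fold higher in CD4CD8aa IEL. The same-gene SD at that brightness was 0.55, and 0.615% of the 1626 detected genes of 2 to 4 times the median were as far higher, beside 4.49% at least 2-fold higher. A floor of 4 array medians, above its CD4 signal, left a difference of 0.41. Alpha X and alpha L share the beta 2 chain, and their differences were 1.53 above and 1.12 below that of Itgb2.

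Since alpha X also marks dendritic cells, markers of dendritic cells and macrophages were read beside it. Of 20 such genes 19 were on the array and 18 were detected, with 0 at least 2-fold higher, 0 lower and a median difference of 0.07. Over all detected genes, 12.9% were at least 2-fold apart. The dimmest of the 19 had 0.126 in CD4 IEL and 0.0629 in the other group, and the summed signals were 87.7 and 104. Csf1r, the receptor for the macrophage growth factor, had 9.79 and 10.2, and H2-Ab1, an MHC class II chain, had 9.82 and 10.3. The MHC class II genes H2-Aa, H2-Eb1 and Cd74 (the invariant chain) had 26.004 and 27.0, 11.9 and 17.6, and 12.3 and 18.9. Of the dendritic cell genes, Flt3 had 0.696 and 1.297, Batf3 1.36 and 2.42, Xcr1 1.28 and 1.83, and Zbtb46 1.06 and 0.67. In all, 11 of the 18 lay above 0 and 7 below, with 6 higher and 1 lower by more than the same-gene SD. Itgam, the gene that lies next to Itgax in RefSeq and encodes the alpha M chain of myeloid cells, was not detected on either array. Most of these markers were thus measured on both arrays, and their part in the signal of Itgax was not tested.

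The promoter of Itgax is shown as that of the member with the largest positive difference at its chosen probe set (RefSeq, GRCm38.p6, chr7:128129300-128129599, plus strand).
Itgax: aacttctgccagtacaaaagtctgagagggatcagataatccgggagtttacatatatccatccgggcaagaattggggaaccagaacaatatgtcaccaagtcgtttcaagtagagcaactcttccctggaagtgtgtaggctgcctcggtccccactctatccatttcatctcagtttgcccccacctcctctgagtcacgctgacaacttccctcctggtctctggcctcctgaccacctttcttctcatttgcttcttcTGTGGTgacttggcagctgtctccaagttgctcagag
The capitals are TGTGGT, the core bound by Runx factors, beginning 13 bases after the start. Runx3 is known to act on the CD8 genes in T cells, which is why the core was searched. It was present on either strand in 16.8% of the 32817 windows and in 2 of the 6 integrin promoters, those of Itgax and Itga4. A match describes the letters only.

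**Figure D2:**
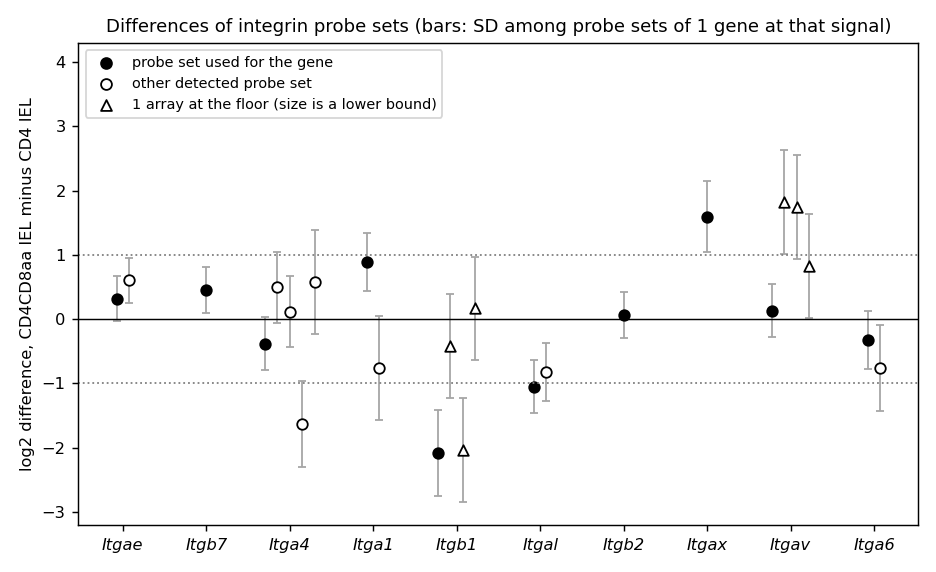
Log2 difference, CD4CD8aa IEL minus CD4 IEL, of the 24 detected integrin probe sets by gene; filled points are the probe sets used for the gene, triangles have 1 array at the floor, bars are the SD among probe sets of the same gene at that signal, and dotted lines mark 2-fold. Both probe sets of Itgae lie above 0 and both of Itgal and of Itga6 below it, while the probe sets of Itga4, Itga1 and Itgb1 lie on both sides.

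The alpha chains that pair with beta 1 showed no common direction. Itga1, whose product binds collagen IV and marks many tissue-resident T cells, had signals of 10.1 and 18.7 (raw 836.7 and 1518), a difference of 0.88 or 1.85-fold higher. This is beyond the same-gene SD of 0.45, and 3.77% of the 3896 detected genes of 4 to 16 times the median were as far higher. Its other probe set was dim, at 1.14 and 0.67, and had the opposite sign (-0.76). The median over both probe sets was 0.06, so the direction rests on the brighter one. The second name deposited for both probe sets is E130012M19Rik, which is not a current RefSeq symbol. Itga6, whose product binds laminin, had 5.004 and 3.995, a difference of -0.32, and 1.37 and 0.81 at its dimmer probe set (-0.76). Both differences of Itga6 were negative, the first within the same-gene SD of 0.45.

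Itga4, which encodes the alpha chain of the MAdCAM-1 and VCAM-1 receptors, could not be read with the same ease. Its brightest probe set had 37.9 and 29.1, a difference of -0.38, within the same-gene SD of 0.41. A second name column of the deposited table gives this probe set to Cerkl, a ceramide kinase-like gene whose end overlaps that of Itga4 in RefSeq, while the probe set named for Cerkl alone was not detected. The other 4 probe sets of Itga4 were all dim. They had signals of 2.44 and 3.44 (difference 0.50), 2.77 and 3.01 (0.12), 2.02 and 0.65 (-1.63), and 0.74 and 1.10 (0.57). Left to these, the gene's difference would be 0.50, so neither the sign nor the level of Itga4 was settled by the probe sets.

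Itgb1, the beta 1 chain that pairs with alpha 1, alpha 4, alpha 6 and alpha V, was dim on both arrays at every one of its 6 probe sets. The brightest had 2.32 in CD4 IEL but 0.55 in CD4CD8aa IEL (raw 191.7 and 44.6), a difference of -2.08 or 4.23-fold lower. The next had 1.63 and 0.126, at least 4.08-fold lower. Of the remaining probe sets, one had 0.53 and 0.387, another 0.069 and 0.449, each with 1 array under the floor, and 2 were not detected. Among the 2126 detected genes of 1 to 2 times the median, 2.21% were as far lower as Itgb1 and 9.13% were at least 2-fold lower. Differences of this size lie close to the floor, and that of Itgb1 shrank to -0.22 under a floor of 2 array medians.

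Beta 1 is also made by stromal and endothelial cells, whose markers were read beside it. Of 10 such genes 8 were detected, with 0 at least 2-fold higher, 4 lower and a median difference of -0.72, and their signals summed to 28.7 in CD4 IEL and 7.19 in CD4CD8aa IEL. Most of the sum was Pdgfrb, a growth factor receptor of pericytes, with 22.4 and 3.11, while Col1a1, a collagen chain of fibroblasts, was not detected. The others lower were Pecam1 (2.41 and 0.211, at least 6.03-fold), Pdgfra (at least 2.75-fold) and Kdr (at least 2.32-fold). Of the 8, 5 lay below 0 and 3 above it, Col3a1 (0.182 and 0.785), Cdh5 (0.097 and 0.776) and Col1a2 (0.530 and 0.617). Col3a1 and Cdh5 were under the floor in CD4 IEL. All but Pdgfrb had a mean signal below the array median, where 11.1% of genes were at least 2-fold lower. Among all detected genes that share was 6.26%. The part of such cells in the difference of Itgb1 was not tested.

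The promoter of Itgb1 is shown as that of the member with the largest negative difference (RefSeq, GRCm38.p6, chr8:128685404-128685703, plus strand).
Itgb1: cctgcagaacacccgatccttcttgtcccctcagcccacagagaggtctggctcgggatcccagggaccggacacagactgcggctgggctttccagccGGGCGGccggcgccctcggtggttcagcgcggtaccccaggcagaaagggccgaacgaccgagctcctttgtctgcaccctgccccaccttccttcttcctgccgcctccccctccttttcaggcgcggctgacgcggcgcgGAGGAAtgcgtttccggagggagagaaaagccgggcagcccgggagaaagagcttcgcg
The first capitals are GGGCGG, the core bound by Sp1, beginning 151 bases before the start, and the second are the Ets core GAGGAA, beginning 9 bases before it. The Sp1 core was present on either strand in 35.6% of the windows and in 3 of the 6 integrin promoters. The window of Itgb1 has a G and C content of 67.3%, against 50% for Itgax and 56.3% for Itgb7. No matches overlapped each other in these windows.

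Itgav, which encodes alpha V, a chain of receptors for vitronectin and for latent TGF-beta, had signals of 30.8 and 33.8 (raw 2537 and 2738), a difference of 0.13 that lies within the same-gene SD of 0.41. Its other probe sets were below the floor in CD4 IEL. In CD4CD8aa IEL they had signals of 1.42 (at least 3.55-fold higher), 1.34 (at least 3.35-fold), 0.71 (at least 1.77-fold) and 0.28 (not detected). The dim probe sets therefore pointed upward together, and the median over detected ones was 1.28, while the bright one was nearly equal. For 2 of the dim ones the deposited description names a RIKEN clone that it calls unclassifiable.

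Among all detected probe sets of the 10 genes, 3 were past 2-fold upward, 4 downward and 17 neither, beside 6.73% higher and 6.97% lower among 30243 detected probe sets of named genes. Only 18 integrin probe sets lay above the floor on both arrays. Set side by side as known pairs, alpha E and beta 7 differed by 0.32 and 0.45 and alpha L and beta 2 by -1.05 and 0.07. Alpha 1, alpha V and alpha 6 had differences of 0.88, 0.13 and -0.32, beside -2.08 for their partner beta 1 at its dim probe set. Of the 8 pairs examined, alpha E with beta 7 had the smallest gap between partners at the chosen probe sets. That ranking is not settled, because the value of alpha 4 comes from the probe set also named Cerkl. Without that probe set alpha 4 would be at 0.50, beside 0.45 for beta 7.

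**Figure D3:**
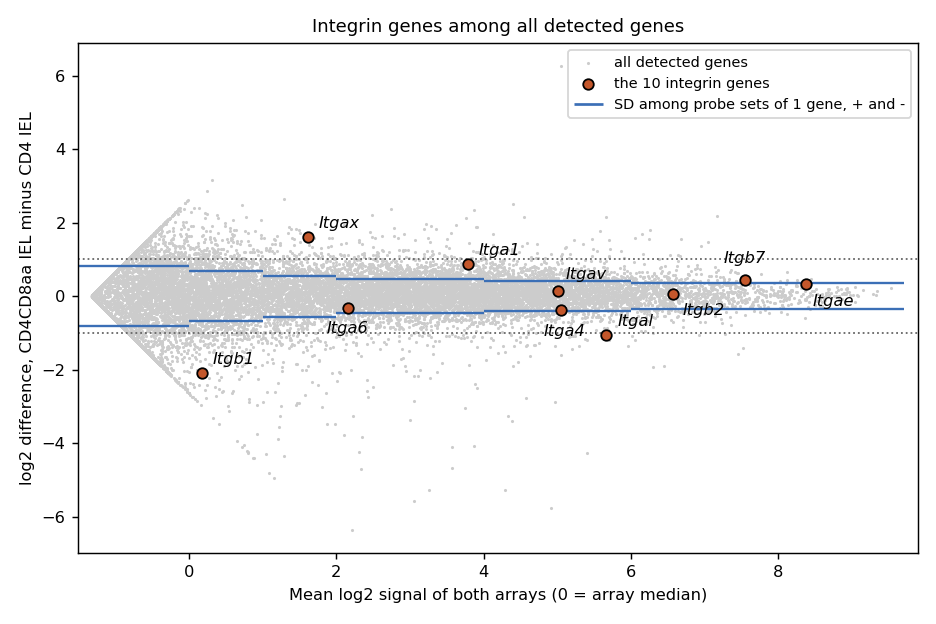
Log2 difference against mean log2 signal of both arrays (0 is the array median) for all 17375 detected genes in grey and the 10 integrins as large points; blue lines are the SD among probe sets of the same gene in each range of signal and dotted lines mark 2-fold. Itgal lies at the lower edge of genes of its brightness and Itgax at the upper edge, while Itgb1 lies among the dim genes whose differences spread widely.

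The other integrin subunits were mostly dim. Of 17 listed, 15 were on the array and 12 were detected, with 1 at least 2-fold higher, 2 lower and a median difference of -0.03. That is 25% apart, beside 12.9% of all detected genes. Of the 12, 8 had a mean signal below the array median, where 23.9% of detected genes were apart. Itgb3, a partner of alpha V, had signals of 20.4 and 12.4 (-0.72), and at its dimmer probe set 0.817 and 0.343, the second under the floor. Itgb5, another partner of alpha V, had 25.7 and 24.6 (-0.06) at a probe set whose suffix marks sequence shared with other transcripts, while its other 3 probe sets reached at most 1.11. Itga3, an alpha chain for laminin, was 2.01-fold higher (2.09 and 4.22), at the edge of the threshold. Itga2, a collagen-binding chain, was at least 3.63-fold lower from a signal of 1.45, and Itga10 was 2.01-fold lower from 0.933. Itga2b, the alpha chain of the platelet receptor, had 2.26 and 2.29.

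Genes that switch integrins on or link them to the cytoskeleton were mostly less than 2-fold apart. Integrins on T cells need this machinery, in which Rap1 proteins, talin and kindlin-3 act on the tails of the beta chains. Of 42 genes 41 were on the array and 40 were detected, with 4 at least 2-fold higher, 1 lower and 35 between, a share of 12.5% apart beside 12.9% of all genes, and a median difference of 0.08. Among the 29 genes with a signal of 4 or more on both arrays, 0 were 2-fold apart. Fermt3, which encodes kindlin-3, had 155.2 and 163.8 (0.08), Rap1b 240.4 and 219.2 (-0.13), Rap1a 159.3 and 135.3 (-0.24), and Stk4, a kinase that acts with RAPL on LFA-1, 143.6 and 160.9 (0.16). The other probe sets of Rap1b gave -0.51 and -0.89, and those of Fermt3 gave -0.01, -0.11 and -0.41. Those of Stk4 gave 0.05 and -0.44, and the other one of Rap1a gave 0.04. Of the 40 genes 28 lay within the same-gene SD, 10 were higher by more than it and 2 lower. Those higher include Tln1, the main talin of leukocytes, with 44.3 and 75.5 (0.77, 1.70-fold), Sipa1, which switches Rap1 off, with 20.4 and 34.6 (0.76), Rapgef1, which switches it on, with 14.98 and 24.1 (0.68), and the kinase Ptk2b with 27.2 and 41.5 (0.61). Lims1, an adaptor of the kinase ILK, was among those lower, with 43.0 and 26.3 (-0.71).

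The genes that reached 2-fold in this group were all dim. Tln2, the talin less used by leukocytes, had 0.816 and 3.60 (4.41-fold higher), with at least 1.77-fold at a second probe set. Vcl, which encodes the talin-binding protein vinculin, had 3.77 and 1.51, 2.49-fold lower. Tgfb1i1 and Lims2, focal adhesion proteins with LIM domains, were at least 2.68-fold and at least 2.32-fold higher, from CD4 signals at or below the floor to 1.07 and 0.928. Ptk2, which encodes focal adhesion kinase, was 2.19-fold higher (0.890 and 1.94), but of its other detected probe sets one gave 0.20 and the next -0.91 as a bound. Under a floor of 2 array medians, 0 genes of the group were 2-fold apart in either direction.

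Surface proteins that associate with integrins or modulate them were all less than 2-fold apart, with 13 of 14 on the array and detected and a median of -0.05. Over all detected genes, 12.9% were at least 2-fold apart. Of the 13, 10 lay within the same-gene SD and 3 were lower by more than it, among them Cd53 and Cd47. Cd53, a tetraspanin of leukocytes, had 105.2 and 59.1 (-0.83, and -0.80 at its other probe set). Cd47, which associates with beta 3 and other integrins, had 95.8 and 56.2 (-0.77), with -0.72, -0.22 and -0.20 at its further probe sets. Thy1, a T cell surface protein that can bind integrins, had 289.4 and 276.7 (-0.06), and the tetraspanin Cd82 had 88.2 and 87.0 (-0.02, but -1.63 at a dim second probe set). All detected probe sets of Cd53 and Cd47 were thus lower in CD4CD8aa IEL, each by less than 2-fold.

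Integrin ligands were read last, since T cells make some of them and other cells in the sort can bring in the rest. All 29 were on the array and 24 were detected, with 3 at least 2-fold higher, 1 lower and a median of 0.10. That is 16.7% apart, beside 12.9% of all detected genes. Of the 24, 13 had a mean signal below the array median, where 23.9% of detected genes were apart. Icam2, a ligand of LFA-1 that resting lymphocytes carry, had signals of 7.93 and 1.85, a difference of -2.10 or 4.28-fold lower. Icam1, its inducible relative, had 39.9 and 55.6 (0.48). Of these LFA-1 ligands, Icam2 was thus lower and Icam1 was higher by 1.39-fold. Icam2 was read at its only probe set. Among genes of its brightness, 2 to 4 times the median, 5.78% were at least 2-fold lower. The other ICAM genes of the list, Icam4 and Icam5, were dim, with differences of -0.85 and -0.46.

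Vcam1, a ligand of the pair of alpha 4 and beta 1, had 3.001 and 9.99 (3.33-fold higher), but its 4 probe sets disagreed, with differences of 1.74 and -1.03 above the floor and of 2.08 and -0.74 as bounds. Spp1 (osteopontin) was 2.12-fold higher (0.823 and 1.74), and Lama5, a laminin chain, at least 2.83-fold higher from a CD4 signal under the floor, with negative differences at its other probe sets. Tgfb1, whose latent form alpha V integrins release and whose active form induces alpha E on T cells, had 11.6 and 19.4 (0.74, and -0.37 at its dim second probe set). Mfge8, a ligand of alpha V, had 6.69 and 8.19 (0.29). Madcam1, the gut address protein of endothelium, had 0.941 and 0.948, near the array median on both arrays.

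**Figure D4:**
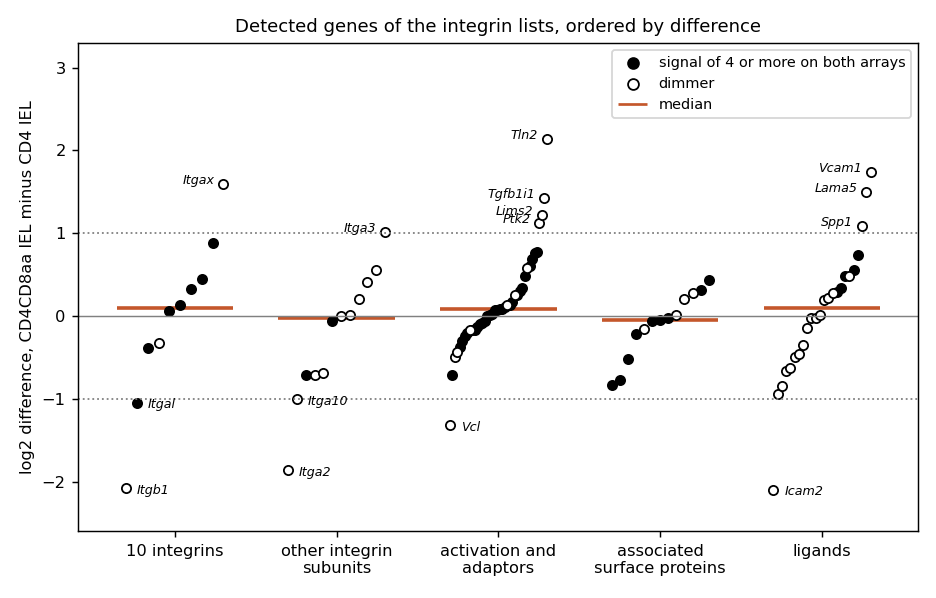
Log2 difference, CD4CD8aa IEL minus CD4 IEL, of the detected genes in each integrin list, ordered within the list; filled points have a signal of 4 or more on both arrays, open points are dimmer, coloured lines are medians and dotted lines mark 2-fold. Itgal is the filled point furthest from 0, and the other named genes past 2-fold are all open points.

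Markers of further cell types the sorts could hold were also measured, some at several times the array median on both arrays. Small intestinal epithelial markers, 19 of 20 on the array, had summed signals of 80.0 and 65.1, with 2 at least 2-fold higher, 4 lower and a median of -0.18. That is 31.6% apart, beside 12.9% of all detected genes and 23.9% of those with a mean signal below the array median. Of the 19, 4 were that dim. Among the 19 markers, Epcam had 1.82 and 2.24, Lyz1 15.1 and 11.3, and Krt18 13.3 and 4.74. B cell and plasma cell markers summed to 5.61 and 3.88, with 4 of 6 detected and 1 of these (25%) lower. Among all detected genes 6.26% were at least 2-fold lower. Of the 4, 3 had a mean signal below the array median, where that share was 11.1%. Neutrophil, mast cell and platelet markers summed to 25.1 and 17.8, mostly Kit (18.5 and 10.5), with 1 of 8 detected genes (12.5%) higher. The share at least 2-fold higher was 6.65% among all detected genes. Of the 8, 5 had a mean signal below the array median, where that share was 12.8%. Of the 10 T cell markers all were detected and 3 (30%) were at least 2-fold higher, Cd8a, Cd8b1 and Cd3e. Among all detected genes 6.65% were at least 2-fold higher. Cd8b1 was dim, at 0.514 in CD4 IEL and 1.29 in CD4CD8aa IEL. Its mean signal was below the array median, where 12.8% of detected genes were at least 2-fold higher. The other 7 were less than 2-fold apart, and the median of the list was 0.20.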

How the data were processed

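RNA of sorted CD4 IEL and CD4CD8aa IEL was hybridised to Affymetrix whole-genome mouse arrays, 1 per group, per the series' design text; GCOS 1.2 is named in the submitters' processing notes and GeneSpring GX10 in the design text. No source used here says how probes were background-corrected or summarised. The authors deposited raw intensities (0.2 to 56267 in CD4 IEL, 0.3 to 64981 in CD4CD8aa IEL) and normalized intensities, which equal the raw ones divided by the array's median. The deposited log2 fold and linear fold are CD4 over CD4CD8aa, and summed with the unfloored differences computed here to 0 within 2.55e-07. The deposited filter score was not used.

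The differences use the full-precision normalized intensities, the floor and the 2-fold threshold given in the text. A gene's value is that of its brightest probe set by mean log2 signal. Of the probe sets 37781 name 1 symbol, 1399 several, 5821 none and 36 a symbol turned into a date or number, and 64 are controls; only the first were used. The calculations (Python 3.11.15, pandas 2.3.3) were tested on simulated data. Named from each list were the 4 genes furthest apart past 2-fold in each direction and the 4 brightest. Named outside this rule, once values were known, were Madcam1, Tspan32, Cd3d, Cd247, Cd8b1, Itgam, Tln1, Sipa1, Rapgef1, Ptk2b, Lims1, H2-Eb1, Flt3, Batf3, Xcr1, Pdgfra, Kdr, Col3a1, Cdh5, Col1a2, Icam4 and Icam5. The integrins and the lists (183 distinct genes, 175 matched, 3 through RefSeq synonyms) were chosen with earlier results of these data known. Promoters come from RefSeq.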

Additional observations from a re-analysis of the deposited data

How the results depend on the processing

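Each result was recomputed under 11 alternatives, 1 of them (leaving out the Itga4 probe set that carries a second gene's name) chosen after seeing the data. The integrins other than Itga4 kept their sign wherever they were detected (Itgb1 was not at the highest floor), with ranges of 0.26 to 0.60 for Itgae, 0.39 to 0.47 for Itgb7, -1.11 to -0.94 for Itgal and 0.41 to 1.60 for Itgax. Itga4 was at 0.12 as the median over probe sets and at 0.50 in the added alternative. The number of integrins at least 2-fold higher was 0 under a floor of 4 array medians and 2 (Itgax and Itgav) with the median over probe sets, and the number lower was 1 under both and under a floor of 2 array medians. Over all genes, 1998 were higher and 1960 lower with no floor, 446 and 483 when it was doubled, 204 and 219 at 2 array medians, 141 and 140 at 4, and 237 and 311 with log2(signal + 1), against 1156 and 1088 as reported. Other subunits at least 2-fold higher numbered 2 with no floor and 0 under a floor of 4 medians, raw signals, centring or log2(signal + 1), and those lower 0 with any higher floor and 1 with log2(signal + 1). Activation genes higher numbered 2 with the doubled floor, 0 at the higher floors and 1 with log2(signal + 1), and those lower 0 under the last 3. Tspan32 among the associated proteins became the 1 lower with the median over probe sets. Ligands higher numbered 5 with no floor and 1 at the floors of 2 and 4 medians, with log2(signal + 1) and with the median over probe sets; those lower numbered 2 without a floor or without probe sets of shared sequence and 0 at the highest floor. Higher floors remove dim genes by construction, and the other causes were not tested. The comparison has 1 array per group, so no replicate could be left out. No paired analysis was possible because each group has a single sample.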
